A study of Mus musculus with 2 samples.

Results

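The genes described here are 4 apoptotic caspases (Casp2, Casp6, Casp8 and Casp9) and 4 genes whose products hold caspases in check (Birc2, Birc3, Xiap and Cflar). They were chosen by name, and every probe set whose only gene in the platform annotation is one of them was used: 18 probe sets of 8 genes, among 20380 probe sets of 12393 genes. RNA was compared between dendritic cells (CD11c+MHCII+) and eosinophils (CD11b+CD11c(int)MHCII-SiglecF+), both taken by cell sorting, without stimulation, from lamina propria of the small intestine of C57BL/6 mice aged 8 weeks, with 1 array for each population. No genetic change or treatment is named for either population, and how many mice were pooled for a sort is not stated in the labels. Since a population has 1 array, replicate error is unknown, no test was made, and each difference describes these arrays.

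Caspases are cysteine proteases made as inactive precursors. Initiator caspases are switched on by being brought together on a platform: Casp8 at ligand-bound death receptors through the adaptor Fadd, Casp9 on the Apaf1 apoptosome once cytochrome c has left the mitochondria, and Casp2 on the PIDDosome. Active Casp8 and Casp9 set off the effector caspases, among them Casp6, which cut structural proteins including the nuclear lamins. Xiap binds and blocks active caspases directly, while Birc2 and Birc3 (cIAP1 and cIAP2) are ubiquitin ligases of the TNF receptor complex that steer signalling away from Casp8. Cflar (c-FLIP) resembles Casp8 but lacks protease activity and competes with it or limits it at death receptors. Eosinophils are known as cells whose lifespan depends on survival cytokines.

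The deposited values are signal units on a linear scale, with the same overall scale on both arrays. A floor was set at the median of all signals, 134.7 units. A signal under the floor was raised to it, so the ratio is then a lower bound and is written "at least", and a probe set under the floor on both arrays has no ratio. Differences are log2 of the eosinophil signal over the dendritic cell signal, so a positive value is brighter in eosinophils. The sorted populations carried their own markers: 6 of 8 eosinophil markers on the array passed 4-fold toward eosinophils, with the granule gene Prg2 under the floor throughout, and 9 of 12 dendritic cell markers passed 4-fold toward dendritic cells. Differences of probe sets for 1 gene had a pooled SD of 0.73 in log2 units, or 1.65-fold (1766 genes with 4402 probe sets), which is no measure of the spread between animals. The median measured gene stood 0.16 toward eosinophils, and 57.4% of 7994 measured genes were brighter there by any amount.

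Casp9 (on 1 of its 2 probe sets), Xiap (on its brightest of 6), Casp2 and Casp8 were brighter in eosinophils by 2.88-fold to 4.76-fold. With centring on spike controls these log2 differences were only 0.40 to 1.13. With averaged probe sets Xiap stood at 0.78 and Casp9 at -0.35. Casp6 was brighter in dendritic cells by at least 6.89-fold. Birc3 was brighter in eosinophils by 1.91-fold on the deposited scale but not after centring on spike controls, Birc2 differed by 1.25-fold, and the probe sets of Cflar disagreed in direction. At the 4-fold mark, 1 of the 8 genes stood apart in eosinophils, against 5.35% of 7994 measured genes, and 1 stood apart in dendritic cells, against 5.35% of measured genes. At 2-fold these counts were 4 of 8 in eosinophils, beside 19.0% of all measured genes, and 1 of 8 in dendritic cells, beside 15.5%. The median difference over the 8 genes was 1.23, beside 0.16 over all measured genes. With all probe sets of a gene averaged these medians were 0.23 and 0.15, and with spike centring 0.11 and -0.68. The eosinophil count at 4-fold, which is Casp9, was 0 with averaged probe sets, with median centring and with spike centring. It was 6 with centring on the housekeeping median, where the dendritic cell count was 0. With centring on the median housekeeping difference, chosen after seeing the data, these counts were 2 and 1. These are counts over a small set of named genes and carry no test.

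**Figure D1:**
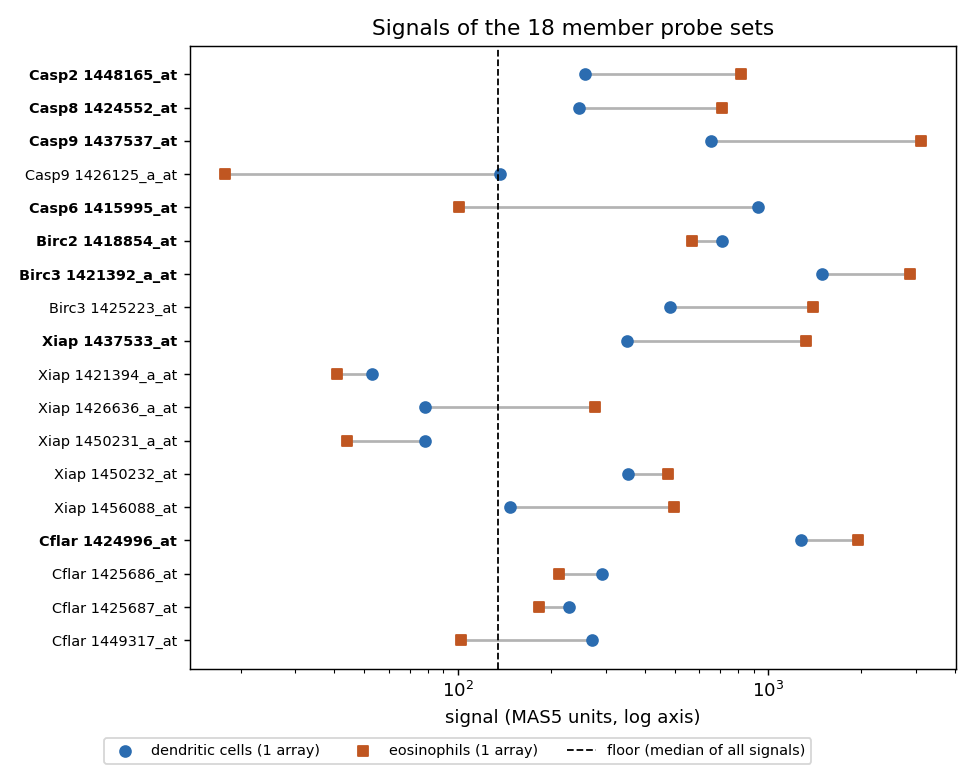
Signals of the 18 probe sets on a log axis in MAS5 units, with a circle for the dendritic cell array, a square for the eosinophil array and a dashed line at the floor of 134.7 units; bold labels mark the probe set that stands for its gene. Casp6 runs from 928 units in dendritic cells to 101 units in eosinophils, the opposite way to Casp2, Casp8 and the brighter Casp9 probe set, and 2 Xiap probe sets lie under the floor on both arrays.

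To show the start regions of the genes on which the comparison turns, the 250 bases before the annotated start are printed for Casp6 and Casp9, the pair past 4-fold in opposite directions, and for Birc2 and Birc3, paralogues that lie next to each other on chromosome 9 and differed in how they were distributed between the arrays. Sequences are from RefSeq, build GRCm38.p6, 5′ to 3′ on the strand of the gene, and capitals mark the GC box GGGCGG on either strand.
Casp6, chr3:129901165-129901414, plus strand: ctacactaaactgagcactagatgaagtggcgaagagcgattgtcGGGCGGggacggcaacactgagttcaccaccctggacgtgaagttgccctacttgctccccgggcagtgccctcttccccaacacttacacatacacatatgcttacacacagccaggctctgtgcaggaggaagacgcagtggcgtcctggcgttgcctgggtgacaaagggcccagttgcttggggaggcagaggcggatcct
Casp9, chr4:141793362-141793611, plus strand: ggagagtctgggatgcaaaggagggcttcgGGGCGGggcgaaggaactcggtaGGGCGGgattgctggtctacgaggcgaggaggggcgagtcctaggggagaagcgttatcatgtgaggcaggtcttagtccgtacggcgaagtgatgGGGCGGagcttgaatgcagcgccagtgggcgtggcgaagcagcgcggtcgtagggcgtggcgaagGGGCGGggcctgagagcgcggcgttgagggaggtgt
Birc2, chr9:7837058-7837307, minus strand: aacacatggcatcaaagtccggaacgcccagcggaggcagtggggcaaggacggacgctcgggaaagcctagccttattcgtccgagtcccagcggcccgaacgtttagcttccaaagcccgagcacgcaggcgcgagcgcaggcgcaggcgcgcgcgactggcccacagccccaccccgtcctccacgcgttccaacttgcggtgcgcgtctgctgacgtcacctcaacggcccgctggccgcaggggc
Birc3, chr9:7873171-7873420, minus strand: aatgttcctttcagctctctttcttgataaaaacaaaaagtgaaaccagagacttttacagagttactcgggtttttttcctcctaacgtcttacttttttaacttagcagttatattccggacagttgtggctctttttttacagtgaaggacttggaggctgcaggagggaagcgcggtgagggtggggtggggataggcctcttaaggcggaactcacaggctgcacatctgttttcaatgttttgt

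All 8 genes matched the RefSeq promoter table, whose windows hold 250 bases before and 50 bases after a start; for Birc2 (2 starts) and Xiap (3 starts) the start farthest upstream was used. GGGCGG, searched on both strands, is found in 35.7% of the 32851 windows of 300 bases. It occurred 4 times in the window of Casp9, 3 times in that of Casp6, of which 1 is in the stretch printed above, and 2 times each in those of Casp2 and Xiap. It did not occur in the windows of Casp8, Birc2, Birc3 or Cflar. The windows of Casp6 and Casp9, genes that stood apart in opposite directions, thus both hold it. The windows of the adjacent Birc2 and Birc3 differed in base composition, with 67.0% and 43.0% G or C. Cflar was the only one of the 8 with TATAAA (2 matches, found in 13.6% of all windows). CCAAT, found in 37.4% of all windows, occurred 2 times in that of Casp2 and 1 time in that of Casp8. AGATAA, found in 11.2% of all windows, occurred 1 time, in that of Casp8. The kappaB site, found in 4.51% of all windows, had no match in these 8 windows, which says only that these letters are not in these stretches. Overlapping matches on either strand were counted separately, and a match is a description of the sequence and not a binding site.

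Among the initiator caspases, Casp9, the protease of the apoptosome, gave 653 units in dendritic cells against 3105 units in eosinophils on its brighter probe set (1437537_at), a difference of 2.25 or 4.76-fold. Of the 7994 measured genes, 3.98% were at least as far toward eosinophils. Its other probe set (1426125_a_at) gave 137 units in dendritic cells against 17.8 units in eosinophils. Only the dendritic cell signal of that probe set exceeded the floor, and both its signals lay under 182 units, the 95th percentile of 47 probe sets of background genes (germ cell, lens, hair and other genes of distant tissues). The excess in eosinophils therefore rests on 1 probe set, and averaging both before the floor turned the difference to -0.35. Of 2839 genes with at least 2 measured probe sets, 35.9% had probe sets pointing in both directions.

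Casp2, the initiator of the PIDDosome, gave 257 units in dendritic cells against 820 units in eosinophils, a difference of 1.67 or 3.19-fold. Casp8, the initiator at death receptors, gave 246 units in dendritic cells against 710 units in eosinophils, a difference of 1.53 or 2.88-fold. Each has a single probe set, with both signals above the background percentile. Both differences exceeded the pooled SD between probe sets, by 2.31 and 2.10 times, and 7.94% and 9.59% of measured genes lay at least as far toward eosinophils. All 3 initiators were thus brighter on the eosinophil array, each on the probe set that stands for it. On the deposited scale the signals of these probe sets exceeded every floor, so the other floors could not change the differences. The directions held under every other scaling. With spike centring, however, Casp2 (0.55) and Casp8 (0.40) fell under the pooled SD of 0.73, while Casp9 stood at 1.13.

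Casp6, the effector caspase that cuts nuclear lamins, went the other way. Its single probe set gave 928 units in dendritic cells and 101 units, under the floor, in eosinophils. The difference was -2.78 with the floor, at least 6.89-fold, and -3.20 without it. Of the measured genes, 2.51% lay at least as far toward dendritic cells. With the floor set from background genes the difference was -2.35. A floor can shrink a difference but cannot reverse it, and averaging a single probe set repeats its value. The floors and averaging therefore could not turn Casp6 toward eosinophils. Casp6 stayed brighter in dendritic cells under every other scaling, from -3.35 with spike centring to -1.24 with centring on the housekeeping median. These were also the extremes over the 8 alternatives. The unfloored eosinophil signal of a gene this dim is within the range of background genes, so no Casp6 level can be given for eosinophils at this brightness.

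Differences between members do not depend on a common scaling factor except through the floor. Relative to Casp6, Casp9 was higher in eosinophils by 5.03 on the log2 scale, Casp2 by 4.46 and Casp8 by 4.31, each at least since the eosinophil Casp6 signal is a bound. Over the 8 alternatives these contrasts ranged from 2.44 to 5.45, from 3.90 to 4.87 and from 3.75 to 4.72. Of these genes, on the probe sets used, Casp6 was the brightest in dendritic cells and the dimmest in eosinophils. No floor or scaling could therefore reverse these contrasts, and averaging could reverse only that with Casp9.

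**Figure D2:**
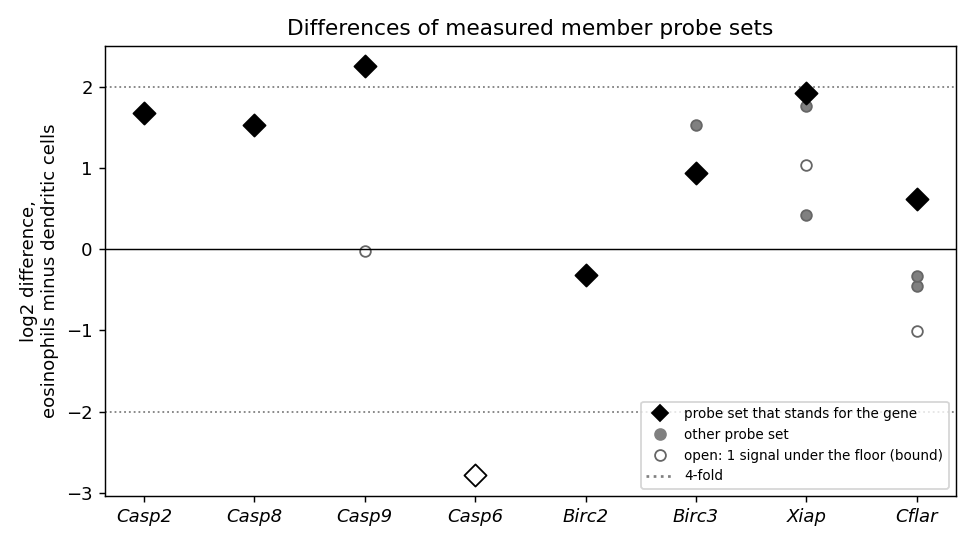
Log2 difference, eosinophils minus dendritic cells, for each measured probe set of the 8 genes; diamonds stand for the gene, circles are its other probe sets, open symbols have 1 signal under the floor and dotted lines mark 4-fold. The 4 measured probe sets of Xiap and both of Birc3 lie above 0 on the deposited scale, those of Cflar lie on both sides, and Casp6 alone lies below -2.

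Among the IAP genes, Xiap, the direct caspase blocker, was represented by 6 probe sets. The brightest (1437533_at) gave 351 units in dendritic cells against 1328 units in eosinophils, a difference of 1.92 or 3.79-fold, with 5.88% of measured genes at least as far toward eosinophils. The 3 further measured probe sets were all brighter in eosinophils. Of these, 1456088_at gave 147 units, under the background percentile, and 497 units (1.76, which may be a lower bound), 1426636_a_at gave 78.5 units, under the floor, and 277 units (at least 1.04), and 1450232_at gave 354 and 475 units (0.42), each with dendritic cells first. The remaining pair, 1421394_a_at and 1450231_a_at, did not exceed the floor, at 53.1 and 78.3 units in dendritic cells and 40.9 and 43.9 units in eosinophils. The platform annotation derives the 6 probe sets from 3 source records. The pair of probe sets from 1 record gave 1.92 and the possible bound of 1.76, while the 3 from another record comprised both unmeasured ones and the smallest difference, 0.42. Probe sets that share a record are not independent measurements of the gene. Averaging all 6 lowered the difference to 0.78, and under every other scaling Xiap remained brighter in eosinophils. Both signals of its brightest probe set exceeded every floor, so the other floors could not change its difference.

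Birc3, which encodes cIAP2, was brighter in eosinophils on both probe sets on the deposited scale, while centring on spikes turned its brighter probe set to -0.19. 1421392_a_at gave 1496 units in dendritic cells against 2864 units in eosinophils (0.94, 1.91-fold), and 1425223_at gave 484 units and 1397 units (1.53, 2.89-fold). All 4 signals were above the background percentile, and the probe sets stood apart by less than 1 on the log2 scale. Birc2, which encodes cIAP1, differed less, at 713 units in dendritic cells against 570 units in eosinophils on its single probe set, a difference of -0.32 or 1.25-fold. This is 0.44 of the pooled SD between probe sets, and no difference beyond that spread was measured. Relative to Birc2, Birc3 was higher in eosinophils by 1.26, or by 1.85 with its other probe set. Over the 8 alternatives the contrast was 1.26 to 1.55. Centring shifts both genes alike and their signals exceeded every floor, so the floors and centrings could not change it. The paralogues share sequence, and whether their probe sets tell them apart was not tested.

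Cflar, the catalytically dead relative of Casp8 encoded beside it on chromosome 1, had 4 probe sets that did not point the same way. The brightest (1424996_at) gave 1273 units in dendritic cells against 1952 units in eosinophils, a difference of 0.62 or 1.53-fold. The other 3 were brighter in dendritic cells. 1425686_at gave 292 units in dendritic cells against 212 units in eosinophils (-0.46), and 1425687_at, from the same source record, gave 228 and 182 units (-0.33). The last, 1449317_at, gave 271 units and 102 units, under the floor (at least 2.01-fold). The median over its probe sets was -0.39, so no direction is given for Cflar. Cflar has several annotated transcripts, and which of them each probe set reads was not tested.

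Set against each other, Casp8 and Cflar differed unequally between the arrays. Casp8 was higher in eosinophils relative to Cflar by 0.91, or 1.88-fold, and against each of the 4 Cflar probe sets it was higher, by 0.91 to 2.54. These pairings are not independent, since all use 1 Casp8 probe set and 2 of the Cflar probe sets share a source record. The spread of both genes enters the contrast, and whether 0.91 exceeds that spread was not tested. Over the 8 alternatives the contrast was 0.75 to 1.92, though centring could change it only through the floor. For the apoptosome protease and its blocker the pairings disagreed in direction: Casp9 exceeded Xiap by 0.33, and the 8 pairings of their measured probe sets ran from -1.94 to 1.83.

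How the arrays were scaled moved every member. A given centring shifted all of them by the same amount, except where a signal met the floor. The deposited scale equalises trimmed means. Centring on the median level of the hybridisation spikes moved the median measured gene by -0.84. The median of the spikes' own differences was 2.06-fold toward eosinophils. Centring on the median level of the housekeeping genes moved the median measured gene by 1.27. The median of the housekeeping genes' own differences was only -0.16, and centring on the median housekeeping difference, chosen after seeing the data, moved the median measured gene by 0.11. The larger shift thus comes from taking the median level on each array. On the spike scale Birc3 (-0.19) and Cflar (-0.51) turned to the dendritic cell side, while Casp9 (1.13), Xiap (0.80), Casp2 (0.55) and Casp8 (0.40) kept their direction. On the housekeeping scale Birc2 turned to the eosinophil side (1.64). Relative to the median measured gene of the same setting, Casp2 lay above it by 1.23 to 2.16, Casp8 by 1.08 to 1.95 and Birc3 by 0.49 to 1.47 over the 8 alternatives, and Casp6 lay between -3.42 and -2.49 from it. Xiap lay above it by 0.63 to 2.46. Casp9 lay above it by 1.81 to 2.79 under the 7 alternatives that keep its brighter probe set, and below it (-0.50) with both probe sets averaged.

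**Figure D3:**
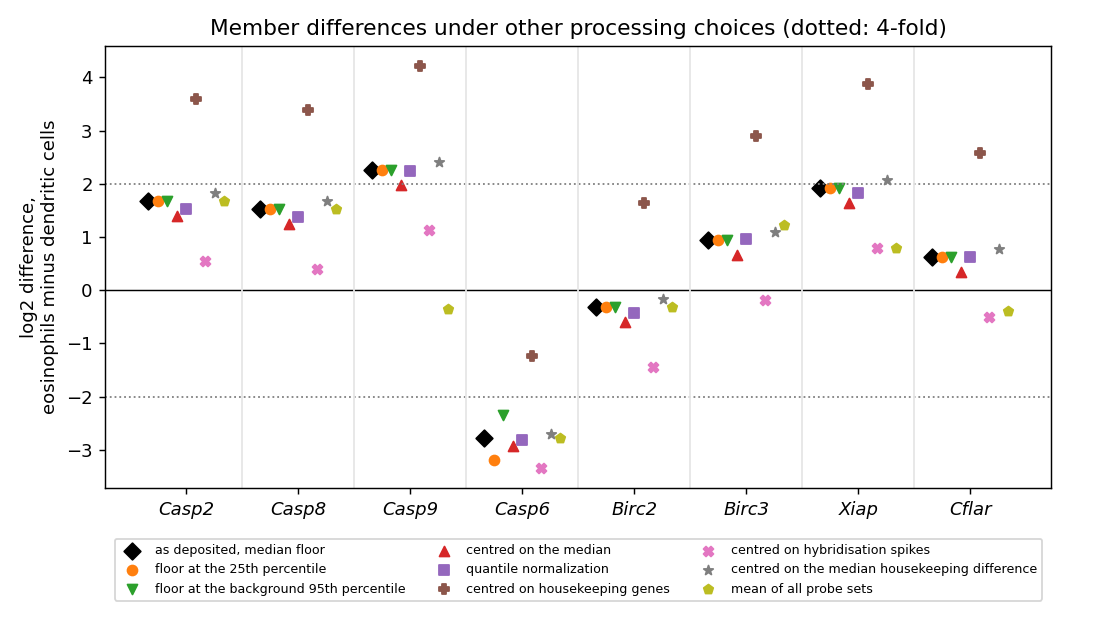
Log2 difference, eosinophils minus dendritic cells, of each gene under the deposited scaling with the median floor (black diamonds) and under 8 alternatives; dotted lines mark 4-fold. Casp6 stays below 0 throughout, at -3.35 to -1.24, Casp2, Casp8 and Xiap stay above 0, and Casp9 drops to -0.35 when its probe sets are averaged.

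Of 10 listed genes for the platforms that start the initiators, 9 were on the array and 7 were measured. Toward eosinophils 0 passed 4-fold, and toward dendritic cells 1 did, Cycs, the electron carrier cytochrome c. Cycs gave 6243 units in dendritic cells against 1531 units in eosinophils, 4.08-fold, with its 3 probe sets at -2.03 to -0.86. Apaf1, the apoptosome scaffold, gave 942 and 1540 units (0.71, second probe set 0.72), and Fadd, the death receptor adaptor, gave 146 and 170 units (0.22), its dendritic cell signal and its eosinophil signal both under the background percentile. Dedd2, which carries a death effector domain, gave 368 and 147 units (-1.32), its eosinophil signal under the background percentile. The list median was 0.014, beside 0.16 over all measured genes, and its sign changed under 4 of the 8 alternatives. On the deposited scale Casp9 was brighter in eosinophils on 1 of its 2 probe sets, and the signal of its trigger Cycs was higher in dendritic cells. Its scaffold Apaf1 also stood toward eosinophils, but by less than the pooled SD of 0.73 between probe sets.

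A list of other caspase genes had 4 analysed here. Neither Casp12 nor Casp14 exceeded the floor. The inflammatory caspase Casp1 gave 225 units in dendritic cells against 337 units in eosinophils (0.58), and Casp4, which senses intracellular lipopolysaccharide, gave 389 units in dendritic cells and 114 units, under the floor, in eosinophils (at least 2.89-fold).

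Of 8 other genes of the BIR domain family, 5 were on the array and 4 were measured, with 1 past 4-fold toward eosinophils and 0 toward dendritic cells. Naip5, a sensor of bacterial flagellin, gave 122 units, under the floor, in dendritic cells and 713 units in eosinophils, at least 5.29-fold. That count was 0 with the floor at the background percentile, or with spike centring, and the count toward dendritic cells was 1 with the floor at the 25th percentile or with spike centring. Naip2 gave 165 and 267 units (0.69), its dendritic cell signal under the background percentile. The Naip genes are close copies of each other, so their probe sets may share signal. Birc6, a large ubiquitin-conjugating IAP, gave 1373 and 3343 units (1.28), with its 3 probe sets from -0.30 to 1.28. Birc5, the mitotic protein survivin, gave 475 units in dendritic cells against 5.65 units in eosinophils, at least 3.53-fold brighter in dendritic cells. The list median was 0.99.

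The IAP antagonists, proteins that displace IAPs or lower their level, were close on both arrays: of 4 on the array 3 were measured and none was 4-fold or 2-fold apart. The mitochondrial protease Htra2 gave 1562 and 2658 units (0.77), Diablo, also called Smac, gave 336 and 265 units (-0.34), and Gspt1 gave 488 and 537 units (0.14). The list median was 0.14, and its sign changed under 3 of the 8 alternatives.

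Substrates cut when a cell is dismantled split between the arrays. Of 14 on the array 13 were measured, with 0 past 4-fold toward eosinophils, 1 past it toward dendritic cells, and 4 and 3 past 2-fold. Lmna, the lamin that Casp6 cuts, gave 1418 units in dendritic cells against 310 units in eosinophils (4.58-fold), although its 3 measured probe sets ran from -2.20 to 0.53. Parp1, the DNA damage sensor, gave 1183 and 340 units (-1.80). The membrane skeleton protein Add1 gave 872 and 3485 units (1.999, just under the mark of 2 that is 4-fold), and the chromatin organiser Satb1 gave 512 and 1776 units (1.79), with probe sets from 0.41. The list median was 0.86, or 0.43 with the unmeasured gene kept at 0, and ran from -0.38 with spike centring to 1.84 with the housekeeping median over the 8 alternatives.

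Death receptors and their ligands mostly gave more signal in dendritic cells, except with centring on the housekeeping median. Of 10 on the array 7 were measured, with 0 past 4-fold toward eosinophils, 2 past it toward dendritic cells, and 0 and 4 past 2-fold. Tnfrsf1a, the TNF receptor with a death domain, gave 1277 units in dendritic cells against 349 units in eosinophils (-1.87). Tnfrsf1b, the second TNF receptor, which binds Birc2 and Birc3 through Traf2, gave 991 units and 32.0 units (at least 7.36-fold), but its other probe set stood at 0.14. Tnfrsf21 gave 1229 and 252 units (-2.28, other probe set 0.02), and Tnf gave 503 and 139 units (-1.86). Fas, chosen after its values were seen, gave 309 and 177 units (-0.80). The eosinophil signals of Tnf and Fas lay under the background percentile. The 4-fold count toward dendritic cells was 0 with averaged probe sets or the housekeeping median, and 4 with median or spike centring. The list median was -1.86, which is the value of Tnf, and -0.44 with the 3 unmeasured genes kept at 0. With the floor at the 25th percentile the list median was -0.995. It stayed below 0 under 7 of the 8 alternatives and was 0.45 with centring on the housekeeping median, where the median measured gene stood at 1.42. On the deposited scale Casp8 was brighter in eosinophils, while Tnfrsf1a and Tnf gave more signal in dendritic cells. Tnfrsf1b and Tnfrsf21 did so only on the probe set that stands for each. Fasl, also chosen after its values were seen, gave 58.7 units, under the floor, in dendritic cells and 149 units in eosinophils (at least 0.14). Its eosinophil signal lay under the background percentile. Tnfsf10 and Tnfrsf10b were under the floor on both arrays.

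In the TNF receptor complex and necroptosis list, 14 of 18 genes were on the array and 12 were measured, with 0 past 4-fold toward eosinophils and 1 toward dendritic cells. That gene was Traf1, an adaptor that binds Traf2 and the cIAPs, at 4291 units in dendritic cells against 32.2 units in eosinophils, at least 31.8-fold. Traf5, another adaptor, gave 256 and 616 units (1.27), Ikbkg, the NEMO subunit of the IKK complex, gave 198 and 462 units (1.22, probe sets from -0.96), and Tab2, which docks the kinase Map3k7 on ubiquitin chains, gave 2452 and 5607 units (1.19, other probe set 1.15). The list median was 0.067.

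**Figure D4:**
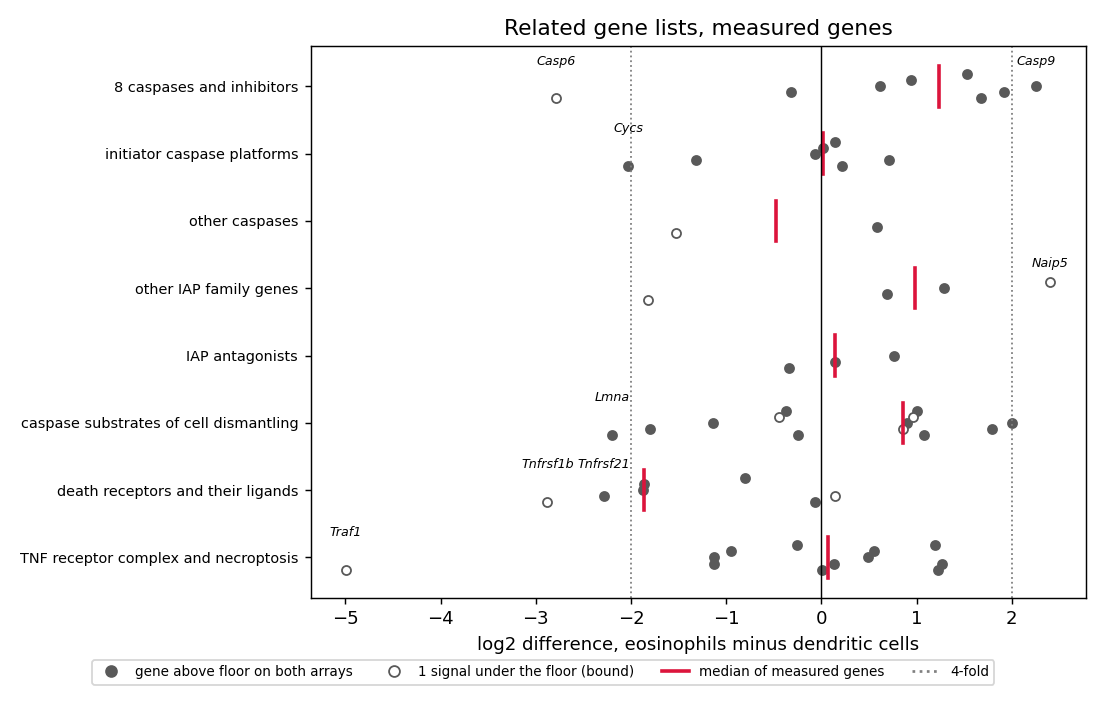
Log2 difference, eosinophils minus dendritic cells, of every measured gene of the 8 caspases and inhibitors and of 7 related lists, with 1 probe set per gene; open circles have 1 signal under the floor, red bars are medians and dotted lines mark 4-fold. Death receptors and their ligands have the lowest median, -1.86, and Traf1 lies at -4.99.

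Genes listed as markers of other cell types gave uneven signal, and their part in the results was not tested. Whether this signal came from other cells or from the sorted cells themselves was not tested either. Over the listed genes on the array, the summed signal of macrophage and monocyte markers (6 of 8 measured) was 7007 units in dendritic cells against 2099 units in eosinophils, that of T cell markers (2 of 6 measured) was 4550 and 629 units, mainly from Cd8a at 3732 and 141 units, and that of epithelial markers (3 of 7 measured) was 896 and 1639 units, mainly from Krt18 at 60.7 and 870 units. Those of B and plasma cell, mast cell and neutrophil markers were at most 650 units on each array. Of their genes and of the T cell markers, those above the floor on an array were Cd8a, Cd3e (557 units in dendritic cells, 336 in eosinophils), Kit (291 units in dendritic cells), S100a8 (176 and 147 units), and, in eosinophils, Elane (155 units) and Pou2af1 (154 units), while Cd3d, Cd3g, Cd79a, Cpa3 and Mpo were under it on both. Fewer cells of a type and less RNA per cell cannot be told apart in such sorted bulk samples. The array's own Gapdh and Actb probe sets for the 3′ end were 6.58 and 9.0 times as bright as those for the 5′ end in dendritic cells, and 9.81 and 6.38 times in eosinophils. Both arrays thus read these transcripts unevenly along their length, and the part of this in the disagreements within Xiap, Cflar and Casp9 was not tested.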

How the data were processed

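RNA of 2 sorted populations, 1 array each, was read as biotin-labelled cDNA, per the labels' protocols. The authors deposited linear signal intensity values; the submitters' processing notes name MAS5, version 5.0. Detection calls were not used, and a genome build is not named in the labels. The arrays' means without the lowest and highest 2% of signals were both 500, so they share a global scale. Of 22690 probe sets, 691 with several genes and 1606 not listed were left out, as were 13 further array controls (64 in all). Symbols were updated by Entrez ID with a RefSeq table of GRCm38.p6 for 20351 of 20380 named probe sets.

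The signals were floored at their median and put on the log2 scale. A gene with several probe sets was represented by that of highest mean log2 signal. Genes above the floor on at least 1 array count as measured (7994). No test is possible with 1 array a group; the number of arrays limits the precision. The text names every member, every one of its probe sets and up to 4 measured genes of each related list with the largest difference. The members and lists were chosen with earlier results of these data known. Alternatives were 2 other floors, 5 other scalings (1 of them chosen after seeing the data), the mean of all probe sets, and a 2-fold mark. Counting was tested on simulated data. Python 3.11.15, numpy 2.4.6 and pandas 2.3.3 were used.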

Additional observations from a re-analysis of the deposited data

How the results depend on the processing

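No paired analysis was possible because each population has 1 array. A value was taken as moved when it shifted by more than the probe set SD of 0.73, or a count by more than 1.5 times. Members at least 4-fold brighter in eosinophils numbered 1, and 0 with median centring, spike centring or averaged probe sets, 2 with centring on the median housekeeping difference (chosen after seeing the data), 6 with centring on the housekeeping median, and 4 at 2-fold. Members at least 4-fold brighter in dendritic cells numbered 1, and 0 with centring on the housekeeping median. The members' median of 1.23 became 3.14 with the housekeeping median, 0.11 with spikes and 0.23 with averaged probe sets. Casp9 reversed to -0.35 with averaged probe sets, where its dim probe set enters. Over all genes, the 428 brighter in eosinophils became 844 with the floor at the 25th percentile, 2974 with the housekeeping median, 149 with spikes and 1519 at 2-fold; the 428 brighter in dendritic cells became 665, 98, 1225 and 1241. The share of these counts that lay in eosinophils, 50%, was 35.6% with median centring, 96.8% with the housekeeping median and 10.8% with spikes. Of 182 values of the related lists under the alternatives, 132 did not move in this sense and 50 moved. Of the 56 list medians among them 15 changed sign, and no related list had a median past 4-fold on the deposited scale with the median floor. The values that did not move include counts that were 0 and stayed 0. Signals under the floor or the background percentile limit Casp6 in eosinophils, the dimmer Casp9 probe set, 4 of 6 Xiap probe sets and 1 of 4 Cflar probe sets.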
